A study of Homo sapiens with 6 samples.

Results

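C1QBP, the gene targeted by the siRNA, and 6 named genes around it on chromosome 17 (RPAIN, NUP88, DHX33, DERL2, MIS12 and RABEP1) were followed across all libraries. They were taken by gene name, 7 genes of 58735 in the count table, and all 7 were among the 15530 genes that passed the low-count filter. The cells were HuCCT1, an established human cholangiocarcinoma (bile duct cancer) line. One group, siC1QBP (n = 3 libraries), was given siRNA against C1QBP, and the other, siNC (n = 3 libraries), the siRNA that the labels code as NC. Both groups share the same cell line, and the labels name no dose, time after transfection or siRNA sequence. RNA sequencing gave raw counts per gene of total RNA. The comparison asks whether the loss of C1QBP transcript was accompanied by a change of the genes at the same locus.

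A small interfering RNA guides the cell's RNA-cleaving complex to a matching transcript, so a knockdown lowers an RNA after it has been made, whereas silencing of a chromosomal region would lower several neighbouring genes at once. C1QBP, also called p32 or the receptor for the globular heads of C1q, is made in the cytosol, imported into the mitochondrial matrix and needed there for normal mitochondrial translation; it was first found bound to a splicing factor. Its neighbours serve unrelated processes. RPAIN carries the single-stranded DNA binding complex RPA into the nucleus, NUP88 is a nucleoporin of the cytoplasmic face of the nuclear pore, DHX33 is a DEAH-box RNA helicase, DERL2 is a membrane protein of endoplasmic reticulum (ER)-associated degradation, MIS12 is a subunit of the kinetochore, and RABEP1 (rabaptin-5) is an effector of the small GTPase RAB5 on early endosomes.

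The coordinates of the table (hg38, 1-based) equal GENCODE release 29 for all 58735 genes and set the arrangement of the locus. C1QBP (ENSG00000108561) lies on the minus strand at chromosome 17, 5432777 to 5448830. RPAIN (ENSG00000129197) lies on the plus strand at 5419641 to 5432876, so the pair run towards each other and meet at their 3′ ends, where their exons overlap by 100 bases on opposite strands. RPAIN and C1QBP are thus a tail-to-tail pair, not a head-to-head one. The starts of the principal transcripts are 19.5 kb apart in GENCODE. Head-to-head pairs at the locus are NUP88 (ENSG00000108559; minus strand, 5360963 to 5420160) with RPAIN, and DERL2 (ENSG00000072849; minus strand, 5471251 to 5486811) with MIS12 (ENSG00000167842; plus strand, 5486285 to 5490814). On the other side of C1QBP, DHX33 (ENSG00000005100; 5440912 to 5469060) is transcribed in the same direction. RABEP1 (ENSG00000029725; plus strand, 5282265 to 5385812) begins 157 kb from the start of the principal C1QBP transcript.

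**Figure D1:**
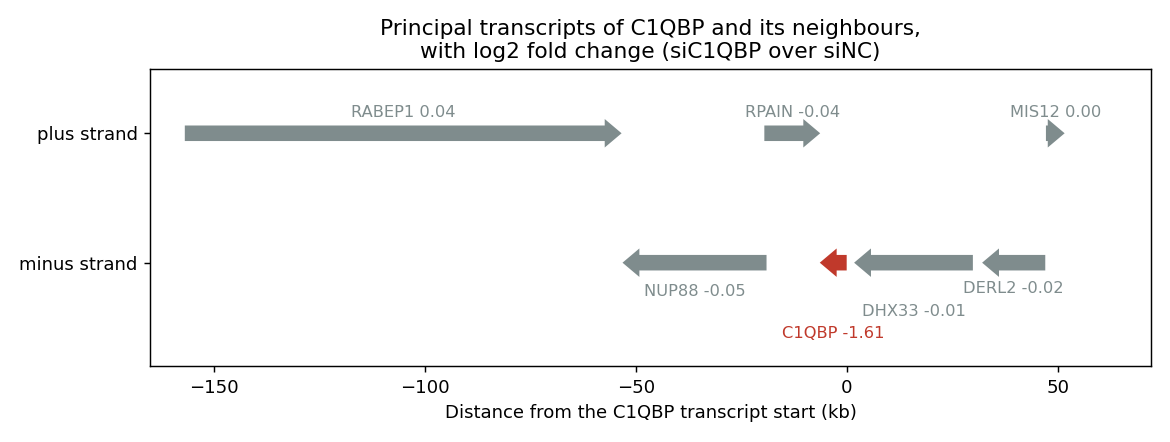
Principal GENCODE transcripts of the 7 genes, drawn to scale as arrows that point in the direction of transcription, against distance in kb from the start of the principal C1QBP transcript, with plus-strand genes in the upper lane and minus-strand genes in the lower. The number beside each name is its log2 fold change (siC1QBP over siNC): C1QBP (red) stands at -1.61 and the 6 neighbours (grey) between -0.05 and 0.04.

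The promoters of C1QBP, RPAIN and NUP88 are shown because they place the start of RPAIN with that of NUP88 and not with that of C1QBP. Each runs 5′ to 3′ on its own strand, from 250 bases before to 50 bases after the start in RefSeq (GRCh38.p14), which held promoters for 5 of the 7 genes. Capitals mark the matches, on either strand, of the 4 motifs searched, none of which overlap here: the E-box CACGTG, the GC box GGGCGG, the CCAAT box CCAAT and the ETS-family core CCGGAAG. C1QBP is chr17:5439106-5439405 on the minus strand, RPAIN chr17:5419932-5420231 on the plus strand and NUP88 chr17:5419613-5419912 on the minus strand.
C1QBP: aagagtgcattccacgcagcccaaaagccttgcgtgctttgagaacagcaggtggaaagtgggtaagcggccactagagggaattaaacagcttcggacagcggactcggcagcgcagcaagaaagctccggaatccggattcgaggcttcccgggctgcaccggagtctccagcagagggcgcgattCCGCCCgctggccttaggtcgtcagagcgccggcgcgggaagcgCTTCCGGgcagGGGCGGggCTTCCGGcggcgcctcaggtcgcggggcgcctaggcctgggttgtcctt
RPAIN: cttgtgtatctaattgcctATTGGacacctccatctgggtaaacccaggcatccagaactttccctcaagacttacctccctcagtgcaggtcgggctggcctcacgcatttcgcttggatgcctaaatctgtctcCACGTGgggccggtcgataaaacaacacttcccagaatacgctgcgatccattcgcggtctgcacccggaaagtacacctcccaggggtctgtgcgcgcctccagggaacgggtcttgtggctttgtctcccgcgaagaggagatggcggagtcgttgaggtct
NUP88: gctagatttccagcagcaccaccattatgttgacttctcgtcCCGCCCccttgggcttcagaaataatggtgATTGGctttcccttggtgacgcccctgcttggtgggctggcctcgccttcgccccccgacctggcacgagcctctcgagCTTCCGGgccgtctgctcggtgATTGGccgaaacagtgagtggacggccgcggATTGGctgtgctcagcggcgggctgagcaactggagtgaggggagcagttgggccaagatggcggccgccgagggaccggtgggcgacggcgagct
The RPAIN and NUP88 windows are 19 bases apart and their RefSeq starts 520 bases apart, whereas the RPAIN and C1QBP starts are 19.0 kb apart. The principal GENCODE starts, 5419641 for RPAIN and 5420160 for NUP88, differ from those of RefSeq, 5420182 and 5419662. Both windows thus lie downstream of the principal GENCODE start of their gene. In GENCODE the 5′ ends of the pair overlap, and in RefSeq they do not. Motif positions below hold for the RefSeq starts. In the C1QBP window, with a GC content of 65.3%, 2 GC boxes began at -62 and -7 and 2 ETS-family cores at -18 and 2, with the start base counted as 1. The RPAIN window, with 56.3% GC, held an E-box at -114 and a CCAAT box at -231. The NUP88 window, with 64.7% GC, held 3 CCAAT boxes, 1 GC box and 1 ETS-family core. Of 35116 RefSeq promoter windows of this length, 7.26% held the E-box, 45.0% the GC box, 34.6% the CCAAT box and 10.3% the ETS-family core. A match is a description of the letters and does not show that a factor was bound.

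Total counts per library were 17122252 to 18847340 in siC1QBP and 18313264 to 20416243 in siNC. The bile duct keratins KRT7 and KRT19 and 6 further cholangiocyte markers were all above 1 CPM (counts scaled to the library total, with library sizes scaled by the TMM method), with summed levels of 7760 to 8140 CPM in siC1QBP and 8580 to 9070 CPM in siNC. Of 6 hepatocyte markers ALB, APOA1, TTR, CYP3A4 and APOB were at or near 0, and SERPINA1, with 490 CPM in siC1QBP and 436 CPM in siNC, passed the test as higher (edgeR adjusted p = 0.0296). Of 5 leukocyte markers CD14 alone was above 1 CPM, with 6.28 CPM in siC1QBP and 6.39 CPM in siNC. Of 4 endothelial markers 2 were above 1 CPM, and 3 of 6 fibroblast markers were above 1 CPM, summing to 48.3 to 51.1 CPM in siC1QBP and 36.6 to 38.6 CPM in siNC. KRT7 (log2 fold change -0.26; edgeR adjusted p = 0.000214) and KRT19 (-0.19; edgeR adjusted p = 0.00863) were called lower in siC1QBP. The fibroblast marker COL1A1 was called higher (0.43; edgeR adjusted p = 0.0012). The remaining tested markers, apart from SERPINA1, were not called. The share of counts from the mitochondrial genome was 4.20% to 4.80% in siC1QBP and 3.66% to 3.88% in siNC. Replicate 1 of siC1QBP stood apart from the other siC1QBP libraries, and its weight is given beside RABEP1. Its chi-square per degree of freedom, against sampling noise, was 6.66 and 6.77, and that between replicates 2 and 3 was 2.09. Replicate 1 of siNC stood apart by less, at 3.67 and 3.4 against 2.13. The part of these differences in the results was not tested. Whether the replicates were separate cultures is not stated in the labels, and p-values then reflect only the variation between these libraries, which can be technical.

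C1QBP was the only one of the 7 genes whose transcript level passed the test, and it fell. It stood at 59.1, 57.6 and 60.0 CPM in siC1QBP and at 175, 181 and 185 CPM in siNC. The groups lay far apart, with means of 58.9 ± 1.19 CPM in siC1QBP and 180 ± 4.94 CPM in siNC (SD, n = 3 each). The log2 fold change was -1.61 (SE 0.05; edgeR quasi-likelihood test, adjusted p = 1.39e-12), which leaves 32.7% of the siNC level (95% interval 30.4% to 35.1%). Of the 15530 genes tested it had the smallest p-value and the 4th largest fall. Raw counts were 1063, 999 and 1143 in siC1QBP and 3187, 3656 and 3390 in siNC, and the coefficient of variation of CPM, 2.03% in siC1QBP and 2.74% in siNC, was of the size of counting error alone, 3.06% in siC1QBP and 1.71% in siNC. In RNA from a whole culture, a lower level in every cell and a loss in some of the cells cannot be told apart.

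None of the 6 neighbours passed the test (edgeR, adjusted p of 0.05), and none had an unadjusted p below 0.05. Of all tested genes, 14.3% were called, 7.84% lower and 6.47% higher. All 7 members are protein-coding, and with protein-coding genes fitted alone 2171 of 12811 genes were called. The count among the members was therefore 1 of 7, and 0 of 6 once the siRNA target was set aside. Fold changes of the 6 lay between -0.05 and 0.04 on the log2 scale, and their 95% intervals together spanned 85.7% to 113% of the siNC level. The median absolute log2 fold change of all tested genes was 0.137. By the plain criterion of library ranges that do not overlap, which 32.6% of all tested genes met, C1QBP was again 1 of 7, since the ranges of all 6 neighbours overlapped between the groups.

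**Figure D2:**
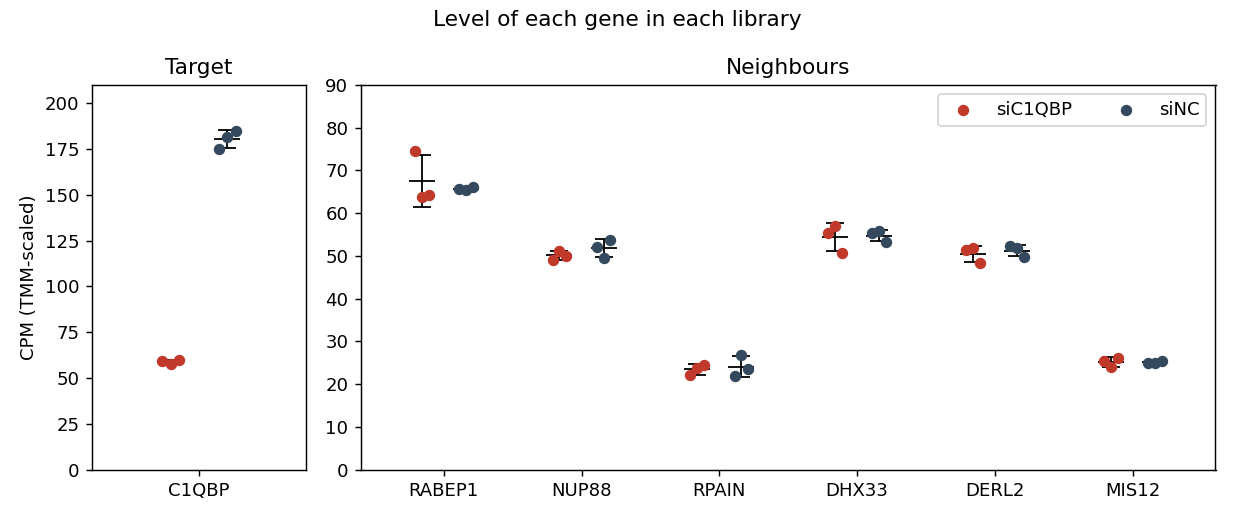
CPM of each of the 7 genes in every library, with siC1QBP points left of siNC points and bars for the mean ± SD of 3 libraries. The C1QBP points sit near 59 CPM in siC1QBP and between 175 and 185 CPM in siNC, while the points of the 2 groups overlap for every neighbour.

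RPAIN, which shares 100 exonic bases with the end of C1QBP, stood at 22.1, 23.8 and 24.5 CPM in siC1QBP and at 21.9, 26.8 and 23.6 CPM in siNC. The siC1QBP values lay inside the siNC range, and replicate 2 of siNC was the highest library. The log2 fold change was -0.04 (SE 0.09, 95% interval -0.22 to 0.14; edgeR adjusted p = 0.809), or 97.3% of the siNC level with an interval of 85.7% to 110.5%. The shared bases make up 4.28% of C1QBP's exonic length and 1.35% of RPAIN's. The counting program's strand setting is not given in the sources used here, so reads over these bases could have gone to either gene. The same limit holds for longer opposite-strand overlaps at the locus. RPAIN and NUP88 share 520 exonic bases (7.0% and 9.82% of their exons), NUP88 and RABEP1 468 (8.84% and 7.17%), and DERL2 and MIS12 301 (4.71% and 9.53%).

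NUP88, whose transcripts start beside those of RPAIN, stood at 49.1, 51.2 and 50.1 CPM in siC1QBP and at 52.1, 49.5 and 53.7 CPM in siNC. Replicate 2 of siNC lay among the siC1QBP values, so the groups overlapped. The log2 fold change was -0.05 (SE 0.06, 95% interval -0.17 to 0.08; edgeR adjusted p = 0.651). NUP88 and RPAIN, the head-to-head pair, thus both had an interval that included 0. AC004148.2, an annotated antisense transcript of RPAIN, shares 526 exonic bases with RPAIN. On the same strand as C1QBP, it also shares 100 exonic bases with C1QBP, 4.28% of C1QBP's exons and 5.16% of its own. Strand alone does not separate reads over those 100 bases. AC004148.2 was far fainter, with 2.28 ± 0.130 CPM in siC1QBP and 2.23 ± 0.641 CPM in siNC (SD, n = 3 each). Its log2 fold change was 0.04 (edgeR adjusted p = 0.943).

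DHX33 is the neighbour upstream of C1QBP on the same strand. It stood at 55.5, 57.1 and 50.8 CPM in siC1QBP and at 55.3, 55.7 and 53.3 CPM in siNC, and the siNC values lay within the siC1QBP range. The log2 fold change was -0.01 (95% interval -0.14 to 0.12; edgeR adjusted p = 0.938). One annotated transcript, C1QBP-202, starts inside DHX33 at 5448830, so the gene spans overlap by 7919 bases, but the exons share 22 bases. The principal transcript, C1QBP-201, begins at 5439155, outside DHX33. Counts per gene do not show which C1QBP transcripts fell.

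DERL2 and MIS12 begin 157 bases apart on opposite strands in GENCODE. DERL2 stood at 51.4, 51.8 and 48.2 CPM in siC1QBP and at 52.3, 51.9 and 49.7 CPM in siNC. MIS12 stood at 25.3, 23.9 and 26.2 CPM in siC1QBP and at 25.0, 25.0 and 25.4 CPM in siNC. The groups overlapped for both genes. The log2 fold change was -0.02 for DERL2 (95% interval -0.15 to 0.10; edgeR adjusted p = 0.837) and 0.00 for MIS12 (95% interval -0.15 to 0.16; edgeR adjusted p = 0.994). The MIS12 interval allows 89.9% to 111% of the siNC level.

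RABEP1, the farthest of the 6, stood at 74.5, 63.8 and 64.4 CPM in siC1QBP and at 65.6, 65.3 and 66.1 CPM in siNC. Replicate 1 of siC1QBP was above all other libraries, and the remaining siC1QBP libraries were below the siNC range. The coefficient of variation was 8.92% in siC1QBP, where counting error alone gives 2.87%. In siNC it was 0.592%, under the 2.84% of counting error alone, so the siNC range understates the spread to be expected. The log2 fold change was 0.04 (SE 0.06, 95% interval -0.09 to 0.17; edgeR adjusted p = 0.728) and became -0.04 without replicate 1 of siC1QBP, so its sign rested on that library.

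The sign of these small values moved with the processing. DHX33, DERL2 and MIS12 each changed sign under at least 1 other scaling, filter or tool, and RPAIN and RABEP1 when a single library was left out, and none of the 6 was called in any of the 18 alternatives. NUP88 stayed below 0 in all of them, between -0.08 and -0.02.

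**Figure D3:**
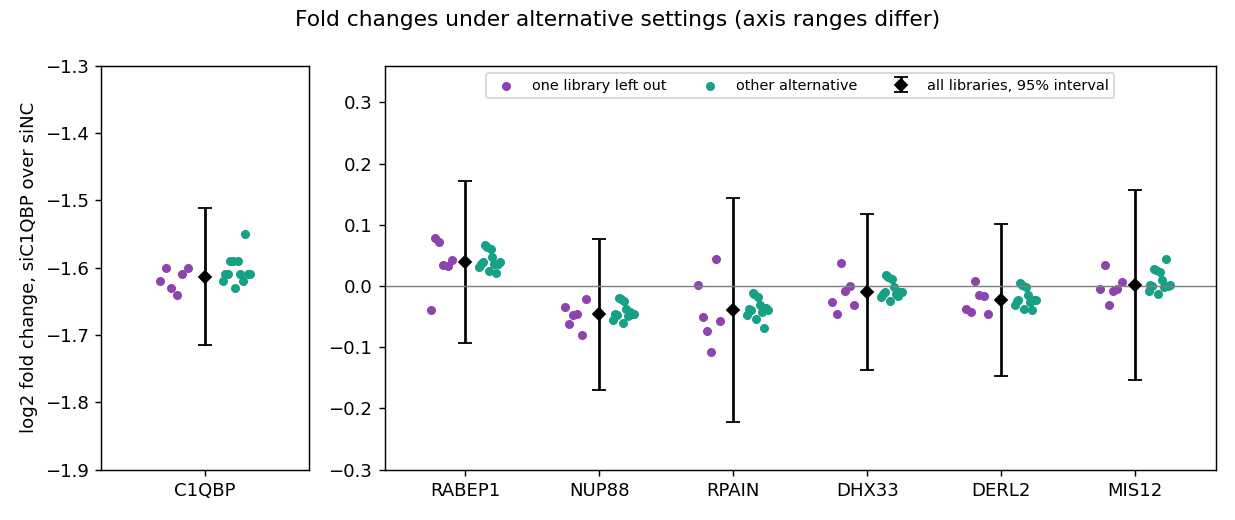
Log2 fold change (siC1QBP over siNC) of each of the 7 genes with all libraries (black diamonds, bars for the 95% interval), with 1 library left out (purple) and in other alternative settings (green), in panels with different axis ranges. C1QBP ranged from -1.64 to -1.55, and the neighbours together from -0.11 to 0.08, on both sides of 0 for 5 of the 6.

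The ratio of C1QBP counts to those of a neighbour in the same library does not depend on scaling. C1QBP had 2.68, 2.42 and 2.45 counts for each RPAIN count in siC1QBP and 7.99, 6.77 and 7.83 in siNC. Against DHX33 the ratio was 1.07, 1.01 and 1.18 in siC1QBP and 3.16, 3.26 and 3.46 in siNC. Against RABEP1 it was 0.793, 0.904 and 0.932 in siC1QBP and 2.66, 2.78 and 2.79 in siNC. In siC1QBP libraries RABEP1 thus held more counts than C1QBP, and in siNC libraries fewer. Over the 6 neighbours the log2 ratio differed by -1.65 to -1.57 (siC1QBP minus siNC), and every siC1QBP library was below every siNC library for each ratio. The exact two-sided permutation test gave p = 0.1 for each, the smallest that 3 against 3 libraries allow, and 0.1 after adjustment over the 6 ratios. All 6 ratios share the C1QBP counts, so they repeat the fall of C1QBP and are not 6 separate results.

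**Figure D4:**
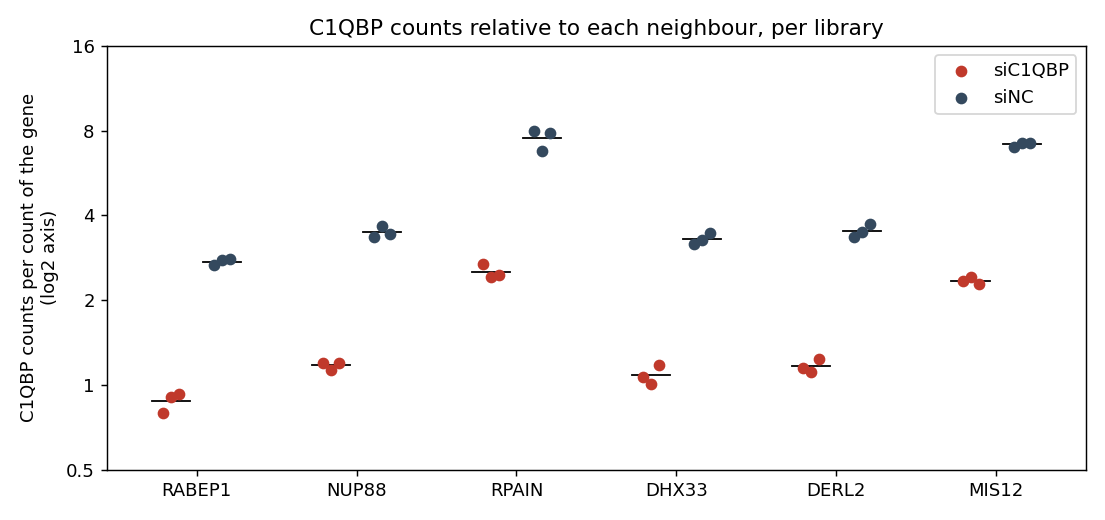
Counts of C1QBP divided by counts of each neighbour in the same library, on a log2 axis, with siC1QBP left of siNC and lines at the geometric means of 3 libraries. For all 6 neighbours the 3 siC1QBP libraries lie below the 3 siNC libraries, for example at 1.13 to 1.20 against 3.35 to 3.66 for NUP88.

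Levels of different genes were set side by side per kb of the exonic length in the table. C1QBP was the highest of the 7 in both groups, at 25.2 ± 0.512 CPM per kb in siC1QBP and 77.2 ± 2.11 CPM per kb in siNC (SD, n = 3 each). Among 12811 tested protein-coding genes this placed it at percentile 86.4 in siC1QBP and 96.4 in siNC, so its remaining transcript level was still above that of most expressed genes. RABEP1 followed at 10.3 ± 0.922 CPM per kb in siC1QBP and 10.1 ± 0.0596 in siNC, NUP88 at 9.47 ± 0.193 and 9.78 ± 0.399, and DHX33 at 9.27 ± 0.557 and 9.33 ± 0.217, in the same order of groups. The libraries of NUP88 and DHX33 overlapped in both groups, while RABEP1 lay above both genes in every siC1QBP library and overlapped NUP88 in siNC. MIS12, at 7.97 ± 0.361 in siC1QBP and 7.97 ± 0.0761 in siNC, and DERL2, at 7.90 ± 0.304 and 8.03 ± 0.218, overlapped on this scale. RPAIN was lowest, at 3.16 ± 0.170 CPM per kb in siC1QBP and 3.24 ± 0.335 in siNC. The order of the neighbours depends on the length used. For RPAIN the table's 7430 bases join the exons of 17 annotated transcripts, 6 of them with retained introns, whereas the principal transcript has 1535 bases. With principal transcript lengths RPAIN was 3rd of 7 in siC1QBP and siNC, at 15.3 and 15.7 CPM per kb, and C1QBP remained 1st at 50.4 and 154 CPM per kb. On that scale NUP88 was 2nd, at 17.2 in siC1QBP and 17.8 in siNC, RABEP1 4th and DHX33 6th. DERL2 then stood above MIS12, at 12 ± 0.461 against 9.35 ± 0.423 CPM per kb in siC1QBP and 12.2 ± 0.330 against 9.35 ± 0.0893 in siNC (SD, n = 3 each).

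The table holds 2 processed pseudogenes of C1QBP. C1QBPP1 on chromosome 21 had no count in any library. C1QBPP2 on chromosome 11 had 3, 4 and 1 counts in siC1QBP and 1, 0 and 0 in siNC, too few to test and a small number beside the 999 to 3656 counts of C1QBP. The table lists no pseudogene under the names of the other 6 genes.

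Beyond the named genes, no change was called within 250 kb of the C1QBP start. For the windows and their distances this start is the outermost of the gene, 5448830, not that of the principal transcript, 5439155. Of the 14 other genes of the table in that window, 8 were tested, with a median log2 fold change of -0.0044, and the 6 untested genes had at most 8 counts in a library. The 8 were the 6 neighbours, AC004148.2 and NLRP1, an inflammasome sensor, with 2.22 ± 0.617 CPM in siC1QBP and 1.89 ± 0.263 CPM in siNC (SD, n = 3 each; log2 fold change 0.23, SE 0.26; edgeR adjusted p = 0.605). The nearest called gene was CAMTA2, 461 kb away. The 15 tested genes closer than it lay between -0.21 and 0.28, with a median of 0.04, and none had an unadjusted p below 0.05. Tested genes were unevenly spread. On the side of higher coordinates none starts between NLRP1, at 171 kb, and PIMREG, at 996 kb. All called genes within 1 Mb other than PIMREG lie on the side of lower coordinates.

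Within 1 Mb, 36 of 83 other genes were tested, and 6 were lower and 2 higher (edgeR), or 22.2% in either direction. That share was 14.3% of all genes, 15.1% of 985 tested genes on chromosome 17 and 18.1% of 171 within 5 Mb. Falls were 16.7% of the 36, against 7.84% of all genes, 8.12% on chromosome 17 and 8.77% within 5 Mb. Rises were 5.56%, against 6.47%, 7.01% and 9.36% in the same order. The median of the 36 was -0.02 and that of all tested genes 0.0026, and the difference of these shares was not tested. PFN1, which encodes the actin-binding protein profilin, had 508, 604 and 617 CPM in siC1QBP and 726, 801 and 800 CPM in siNC (log2 fold change -0.43; edgeR adjusted p = 0.000256). PIMREG, a regulator of mitosis 996 kb away, stood at 27.6, 29.4 and 26.3 CPM in siC1QBP and 35.1, 37.8 and 37.6 CPM in siNC (-0.41; edgeR adjusted p = 0.00113). Neither gene's groups overlapped.

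SLC25A11, the mitochondrial carrier that exchanges oxoglutarate for malate, had 47.8, 52.7 and 47.1 CPM in siC1QBP and 58.2, 64.2 and 62.8 CPM in siNC (log2 fold change -0.33; edgeR adjusted p = 0.00231). The chemokine gene CXCL16 had 80.8, 83.4 and 82.0 CPM in siC1QBP and 98.3, 101.5 and 95.04 CPM in siNC (-0.26; edgeR adjusted p = 0.00224). The proteasome subunit gene PSMB6 had 94.4, 109 and 113 CPM in siC1QBP and 117, 132 and 132 CPM in siNC (-0.26; edgeR adjusted p = 0.0128), a call lost without replicate 2 (edgeR adjusted p = 0.0836) or 3 (0.0773) of siNC. RNF167, a ubiquitin ligase gene whose exons share 244 bases with the opposite strand of SLC25A11, had a log2 fold change of -0.17 (edgeR adjusted p = 0.0290). The RNF167 call was lost without replicate 2 or 3 of either group (edgeR adjusted p of 0.0694 to 0.129), under scaling by library size alone (0.0544) or the upper quartile (0.067), and under the gene length correction (0.125).

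The rises were CAMTA2, a transcription factor gene, at 30.6, 30.8 and 28.4 CPM in siC1QBP and 23.4, 23.6 and 23.9 CPM in siNC (log2 fold change 0.34; edgeR adjusted p = 0.00457), and MED11, a Mediator subunit gene. MED11 stood at 7.06, 8.71 and 9.03 CPM in siC1QBP and 5.16, 4.76 and 5.50 CPM in siNC (0.69; edgeR adjusted p = 0.00439). Its exons overlap opposite-strand genes, CXCL16 by 85 bases and AC091153.4 by 460, the second being 31.1% of its exonic length, so part of its counts may belong to another transcript. The same limit holds for CAMTA2, whose exons overlap opposite-strand AC004771.4 by 471 bases, AC004771.5 by 371 and AC004771.2 by 258. These are 7.85%, 6.18% and 4.3% of its exonic length. Among the falls, PFN1 shares 111 exonic bases (5.59%) with opposite-strand ENO3, and PIMREG 206 (7.3%) with PITPNM3.

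**Figure D5:**
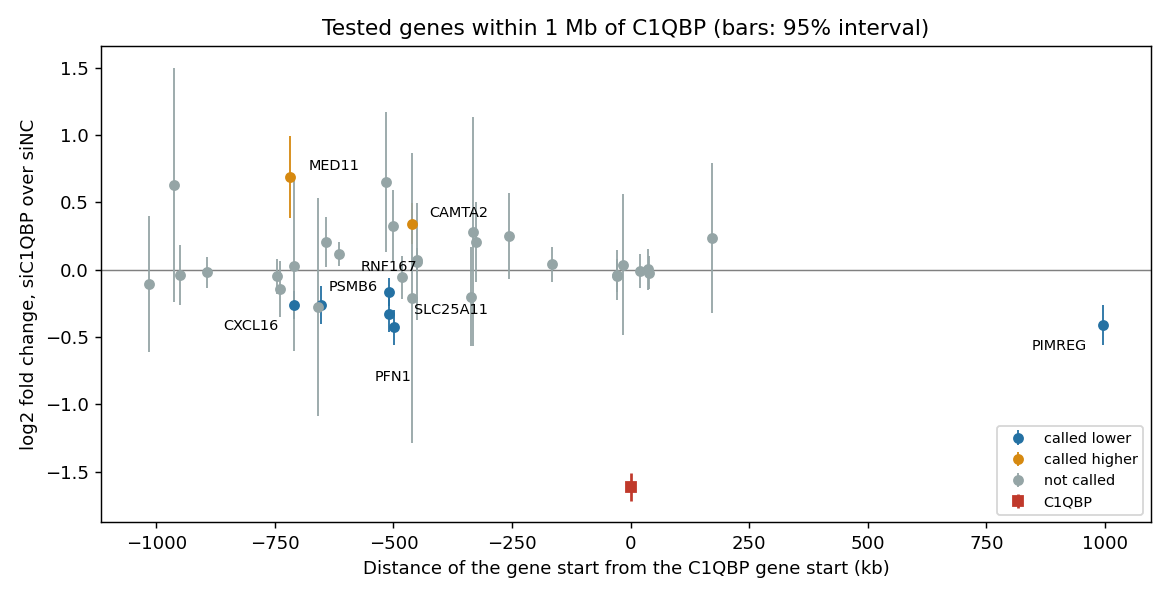
Log2 fold change (siC1QBP over siNC) of C1QBP and the tested genes within 1 Mb, against the distance of their starts from the C1QBP start in kb, with genes called lower in blue, called higher in orange and not called in grey, and 95% intervals as bars. C1QBP at -1.61 stands alone in the centre, and the 8 called genes lie at 461 kb or more. Distances count from the outermost start of the C1QBP gene, 5448830.

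Partners, pathway members or, for DHX33, relatives of the 7 gene products were counted in 7 lists of 153 genes, of which 142 were tested. In siC1QBP, 18 were lower and 4 higher (edgeR), or 15.5% in either direction, against 14.3% of all tested genes. All listed genes are protein-coding, whereas the share of all genes includes noncoding ones. With protein-coding genes fitted alone, 25 list genes were called, beside 2171 of 12811 genes. With a filter of 10 CPM in 3 libraries, 24 list genes were called, beside 2060 of 9839 genes. The calls leaned more towards falls than those of all tested genes, of which 7.84% were lower and 6.47% higher. This lean was not tested. The median log2 fold change over the lists was -0.04. Among reported or proposed binding partners of C1QBP, 3 of 12 tested genes were lower and none higher (list median -0.12). CDKN2A, whose ARF product binds C1QBP, had 94.1, 108 and 107 CPM in siC1QBP and 121, 143 and 148 CPM in siNC (-0.41; edgeR adjusted p = 0.000933). The chaperone gene CALR was at -0.18 (edgeR adjusted p = 0.00446) and YBX1, an RNA-binding protein gene, at -0.14 (edgeR adjusted p = 0.0238). SRSF1, the splicing factor with which C1QBP was first purified, did not pass, with 69.7 CPM in siC1QBP libraries and 77.0 CPM in siNC libraries (log2 fold change -0.14; edgeR adjusted p = 0.121). The C1q chain genes C1QA, C1QB and C1QC were among the 8 partners too faint to test.

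In the list of RPA and replication-fork genes drawn up for RPAIN, 2 of 12 tested genes were lower and 1 higher (list median -0.04). RPA3, the smallest RPA subunit, had 35.7, 44.7 and 43.1 CPM in siC1QBP and 53.5, 58.7 and 54.3 CPM in siNC (log2 fold change -0.43; edgeR adjusted p = 0.00136), and RPA2 was at -0.20 (edgeR adjusted p = 0.0253). ETAA1, which binds RPA and activates the kinase ATR, was at 0.35 (edgeR adjusted p = 0.0217). RPA1 did not pass, at -0.10 (edgeR adjusted p = 0.139).

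Of 33 nuclear pore genes, 3 were lower and 1 higher (list median -0.06). The 4 calls became 8 without replicate 1 of siC1QBP, 2 without replicate 2 or 3 of siC1QBP or replicate 2 of siNC, and 1 without replicate 3 of siNC. GLE1, which works in mRNA export on the cytoplasmic face where NUP88 sits, had 58.9, 57.4 and 54.1 CPM in siC1QBP and 42.7, 43.5 and 40.8 CPM in siNC (log2 fold change 0.42; edgeR adjusted p = 0.000230). NUP58, NUP62 and NUP54, channel nucleoporins that form 1 complex, were at -0.19 (edgeR adjusted p = 0.0179), -0.17 (0.0285) and -0.19 (0.0285). NUP214, the direct partner of NUP88, did not pass, at 0.07 (edgeR adjusted p = 0.435). NUP54 was named after its value was seen.

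Of 15 DEAH-box helicase genes other than DHX33, 3 were lower and none higher, with a list median of -0.0040. The splicing helicase gene DHX15 had 228, 235 and 244 CPM in siC1QBP and 285, 276 and 271 CPM in siNC (log2 fold change -0.24; edgeR adjusted p = 0.00188). DHX29, a translation initiation helicase gene, was at -0.19 (edgeR adjusted p = 0.0311) and DHX30, whose product works in mitochondrial ribosome assembly, at -0.14 (edgeR adjusted p = 0.0487).

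Of 25 genes of ER-associated degradation, none was called (list median -0.01). The most abundant were VCP, the ATPase that extracts proteins from the ER, with 568 ± 17.6 CPM in siC1QBP and 599 ± 13.6 CPM in siNC (SD, n = 3 each; log2 fold change -0.08; edgeR adjusted p = 0.214), and its cofactor gene NPLOC4, at 314 ± 8.17 and 298 ± 9.96 CPM in the same order (0.08; edgeR adjusted p = 0.242). VCP was called, at -0.11, without replicate 1 of siC1QBP (edgeR adjusted p = 0.0262).

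Of 24 kinetochore genes, 5 were lower and none higher (list median -0.08). The 5 calls became 9 without replicate 1 of siC1QBP and 3 without any 1 of the siNC libraries. The checkpoint gene BUB3 had 201, 210 and 218 CPM in siC1QBP and 259, 244 and 255 CPM in siNC (log2 fold change -0.27; edgeR adjusted p = 0.000974). SPC25, a subunit of the microtubule-binding NDC80 complex, was at -0.33 (edgeR adjusted p = 0.00586) and SKA3 at -0.24 (edgeR adjusted p = 0.0162). The subunits that form the MIS12 complex with MIS12 did not pass: DSN1 and NSL1 had log2 fold changes of 0.00 each (edgeR adjusted p = 0.974 and 0.994), and PMF1 had -0.27 (edgeR adjusted p = 0.108).

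Of 22 tested genes of early endosomes, 2 were lower and 2 higher (list median -0.02). RAB5A, a GTPase that RABEP1 binds, had 73.7, 69.3 and 68.8 CPM in siC1QBP and 58.4, 58.7 and 59.3 CPM in siNC (log2 fold change 0.26; edgeR adjusted p = 0.00361). The RAB5 activator gene RIN1 was at -0.42 (edgeR adjusted p = 0.000854) and WDFY1, an endosomal phosphoinositide-binding protein gene, at -0.27 (edgeR adjusted p = 0.00253). In the same list RIN2 was higher, at 0.31 (edgeR adjusted p = 0.00778), and RIN3 did not pass, at 0.03 (edgeR adjusted p = 0.736). The RIN2 call was not followed over the alternatives. Calls of YBX1, RPA2, ETAA1, NUP54, NUP58, NUP62, DHX29, DHX30 and SKA3 were lost when at least 1 single library was left out, and those of YBX1, RPA2, NUP54, NUP62, DHX29 and DHX30 also with upper-quartile scaling. With the gene length correction YBX1 was at -0.06 (edgeR adjusted p = 0.384) and RPA2 at -0.13 (0.122). SRSF1 (-0.20; edgeR adjusted p = 0.0165) and RPA1 (-0.14; 0.0257) were called without replicate 1 of siC1QBP, and PMF1 without replicate 2 of siC1QBP (-0.38; 0.0377). MED11 was not tested under the filter of 10 CPM.

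No neighbour followed the pattern of C1QBP over the 6 libraries. Likeness was measured as the Euclidean distance between log2 CPM profiles, each relative to its own siNC mean, over 10479 protein-coding genes that averaged 5 CPM or more in siNC. The 5 nearest genes, all on other chromosomes, were SNRPB2, a protein of the U2 spliceosome particle (distance 0.445), TMEM238 (0.940), the mitochondrial endonuclease gene ENDOG (1.22), HES4, a transcriptional repressor gene (1.35), and SLIRP, a mitochondrial RNA-binding protein gene (1.39). Most tested genes are on other chromosomes too, with 985 of 15530 on chromosome 17, C1QBP left out. SNRPB2 had 25.3, 21.8 and 24.5 CPM in siC1QBP and 59.6, 61.0 and 64.3 CPM in siNC. The 6 neighbours stood at distances of 2.71 to 2.86, ranks 4505 to 6714 among 10478 genes. These ranks describe the same contrast and are no further test of it.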

How the data were processed

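Per the labels' protocols, total RNA from an RNeasy kit was converted to sequencing libraries by the NEBNext Ultra Directional method, which keeps strand. The table the authors deposited holds raw counts of 6 libraries, not normalized. The build is hg38 per the submitters' processing notes. Aligner, counter and strand setting: not given in the sources used here. The deposited table's gene length column, an other unit in bases, equals the union of exon bases in GENCODE 29.

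Counts were fitted with edgeR 4.0.16 (R 4.3.3): TMM scaling, filterByExpr, the quasi-likelihood test on treatment alone, and p-values adjusted by Benjamini-Hochberg over 15530 genes. An adjusted p under 0.05 is a call. Fold changes are siC1QBP over siNC with their standard error (SE), with 95% intervals from the fit. The script was tested on simulated data. Library totals of 17122252 to 20416243 put 3 counts, the most that a count of 0 allows, at 0.147 to 0.175 CPM (counting error only). No pair of libraries agreed within sampling noise (chi-square per degree of freedom 2.09 to 6.77 within groups). Ratios had 0.5 added to each count.

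The genes and lists were chosen with earlier results of these data known. Named genes are the members, tested genes within 250 kb and called genes within 1 Mb of the C1QBP start, up to 3 called genes with the smallest p and 1 opposite call in each list, or with no call the 2 most abundant, and the 5 nearest by likeness. SRSF1, RPA1, NUP214, DSN1, NSL1 and PMF1 were added as direct partners after their values were seen. RIN2 and RIN3 were added from the early endosome list, also after their values were seen. RefSeq promoters were searched with Python 3.11.15. Alternatives were DESeq2 1.42.0, limma-voom (limma 3.58.1), other scalings and filters, a gene length correction, a block for replicate number, leaving out each library, other windows, a stricter threshold, and, added after seeing the data, other window definitions and principal transcript lengths.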

Additional observations from a re-analysis of the deposited data

How the results depend on the processing

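C1QBP was called in all 18 alternatives, between -1.64 and -1.55 on the log2 scale, and the 6 neighbours in none. Leaving out each library in turn gave -1.64 to -1.60 for C1QBP, -0.108 to 0.0436 for RPAIN, -0.0805 to -0.0213 for NUP88, -0.0455 to 0.0371 for DHX33, -0.0465 to 0.00756 for DERL2, -0.0308 to 0.0345 for MIS12 and -0.0384 to 0.0781 for RABEP1. MIS12 turned below 0 with DESeq2 (-0.0078), with every gene of at least 1 count kept (-0.014), without the genes of the mitochondrial genome (-0.0017) and with the replicate block (-0.00032). DHX33 turned above 0 with upper-quartile scaling (0.017), library size as the only scaling (0.015) and a filter of 10 CPM (0.012), and DERL2 with upper-quartile scaling (0.0043) and library size (0.0022). The cause was not tested. Log2 count ratios moved little, between -1.70 and -1.53 without a library.

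The 2222 calls over all genes became 1105 without replicate 2 of siNC, 1178 without replicate 3 of siNC, 2583 without replicate 1 of siC1QBP and 1057 at an adjusted p under 0.01. Of the 2222, 1005 were higher and 1217 lower; library size as the only scaling gave 1253 higher and 908 lower, and upper-quartile scaling 1280 and 946. The 22 calls over the 7 lists became 11 at an adjusted p under 0.01 and 12 to 36 without a library. By list, calls ranged without a library from 2 to 4 for C1QBP partners, 1 to 5 for RPA, 1 to 8 for the nuclear pore, 1 to 4 for DEAH-box helicases, 0 to 2 for ER-associated degradation, 3 to 9 for the kinetochore and 3 to 5 for early endosomes. With the gene length correction they were 8 each for the nuclear pore and kinetochore, and with the replicate block 7 and 10. The count within 1 Mb was 8, with 0 at 250 kb, 31 at 5 Mb, 6 to 10 without a library and 7 when centred on the principal C1QBP transcript. The deviations of same-numbered libraries had correlations of 0.04, 0.03 and -0.01, with faint genes weighted as much as abundant ones. The numbers were not taken as pairs, and whether same-numbered libraries shared a batch was not tested. With the replicate block, 3092 genes, 36 list genes and 11 genes within 1 Mb were called, and the C1QBP ratios were as reported. The SE of every member was lower with the block, for example 0.0547 against 0.0625 for RABEP1. Depth limits the 6 untested genes within 250 kb.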
